A study of Mus musculus with 11 samples.

Results

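The genes described here are 40 genes of the cell cycle and of DNA replication, chosen by name, whose signals were compared across 4 compartments of the developing mouse kidney and ureter. A probe set with a single gene symbol was present for 39 of the 40. Ccnb1 was not analysed here. All 39 passed the filter on dim probe sets and were tested among 13614 genes. They comprised 18 genes of S phase, origin licensing and G1/S control, 15 genes of G2/M and mitosis, 3 D-type cyclins and 3 inhibitors of cyclin-dependent kinases (CDKs).

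The tissue was wild-type CD-1 mouse, an outbred stock, at E15.5 (Theiler stage 23), and every compartment shared that genotype, strain and age. Laser capture microdissection supplied both kidney compartments, with 2 arrays for the cortical collecting duct and 3 for the early proximal tubule. Ureteral smooth muscle and urothelium, the epithelium lining the ureter, had 3 arrays each. The plots abbreviate these names to CCD, EPT, USM and URO in that order. Each sample pooled approximately 50 sections from 5 kidneys, and its RNA was amplified in 2 rounds before hybridisation to a single-colour Affymetrix array. The labels do not say whether pools shared animals, so p-values measure the spread between pools, which may be partly technical.

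In a dividing cell, D-type cyclins with their CDKs release E2F factors from the retinoblastoma protein, and E2F then switches on cyclin E and the replication genes. The MCM helicase is loaded at origins by Cdc6 and Cdt1 and starts the forks, where PCNA clamps the polymerases to DNA. Genes for mitosis are switched on later, and their promoters commonly carry a cell cycle homology region (CHR) and CCAAT boxes. The fetal kidney grows by division at the tips and in the progenitor zone, while tubule segments behind them differentiate.

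Levels are log2(signal + 55) of the authors' scaled signals, and differences are on the same scale, which makes the folds of dim genes smaller. A gene was called when limma's Benjamini-Hochberg adjusted p over all 13614 genes was under 0.05 and the absolute log2 difference was at least 1. Errors of differences are standard errors (SE) of that fit.

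The labelled compartments carried their markers, given as the sum of the signals of the marker list in each array. Proximal tubule markers summed to 123240 to 175499 in proximal tubule and to 2525 to 11716 elsewhere. Muscle markers summed to 289848 to 348627 in muscle, to 3739 to 7337 in both kidney compartments and to 16017 to 72564 in urothelium. Urothelial markers summed to 142816, 135323 and 50405 in urothelium replicates 1 to 3 and to at most 16729 elsewhere. Collecting duct markers summed to 102449 and 106345 in collecting duct, to 22058 to 45466 in urothelium and to at most 5689 elsewhere, and Hoxb7 lay below the array median everywhere. A date-like part of the sample names splits the arrays into 4 label batches of unstated meaning. Batches 1 and 2 held ureter arrays, batch 3 held kidney arrays, and batch 4 held collecting duct replicate 1, proximal tubule replicate 1 and muscle replicate 2. The 3 arrays of batch 3 (collecting duct replicate 2, proximal tubule replicates 2 and 3) had an actin 3' control signal of 7167 to 10236, against 24831 to 75054 in the others. The actin 3' to 5' signal ratio was 13.36 in collecting duct replicate 2, 13.52 in proximal tubule replicate 2 and 5.07 to 8.74 elsewhere. The Gapdh 3' to 5' ratio was 55.28 in urothelium replicate 2 and 6.79 to 29.7 elsewhere. The part of these differences in the values of the members was not tested.

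Replication genes had higher median signals in both ureter compartments than in both kidney compartments. No comparison tested both ureter compartments together. The median over the 18 S phase members, each centred on its mean over the compartments, was -0.77 and -0.31 in the collecting duct arrays and -0.23, -0.40 and -0.35 in proximal tubule replicates 1 to 3. It was 0.47, 0.32 and 0.59 in muscle and 0.27, 0.59 and 0.53 in urothelium. The 5 kidney arrays therefore lay below all 6 ureter arrays, while the median over all genes ran from -0.11 to 0.17. In tissue samples, fewer dividing cells and less RNA per dividing cell cannot be told apart.

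**Figure D1:**
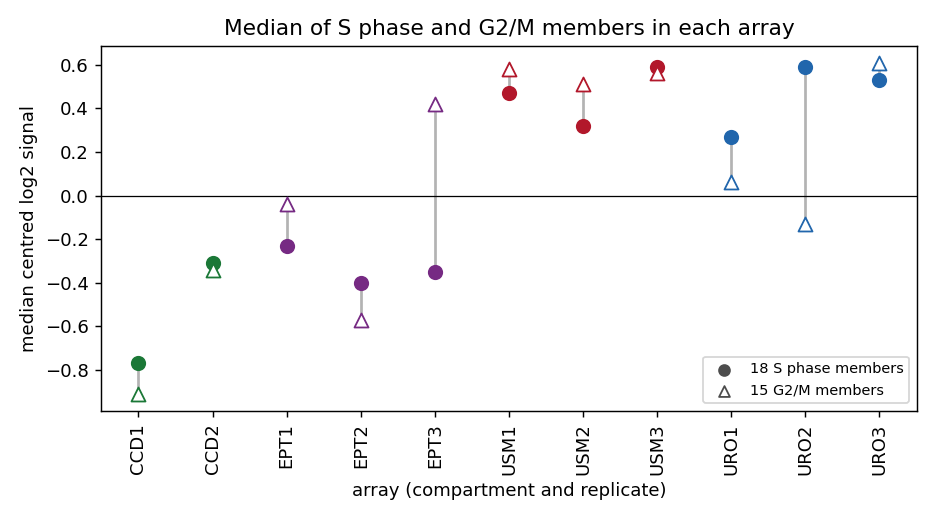
Median of the centred log2 signal over the 18 S phase members (filled circles) and the 15 G2/M members (open triangles) in each of the 11 arrays, with a grey line joining the pair. S phase medians are negative in all 5 kidney arrays and positive in all 6 ureter arrays, and the G2/M median leaves the S phase median most in EPT3 (0.42 against -0.35) and URO2 (-0.13 against 0.59).

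Gene by gene, 8 of the 18 S phase members had all 6 ureter arrays above all 5 kidney arrays, or 44.4%, against 2.37% of all genes tested. This grouping of the arrays was chosen after the values were seen. The 8 genes were Ccne1, E2f1, Cdt1, Mcm2, Mcm3, Mcm5, Pcna and Rrm1, and their mean differences, ureter minus kidney, ran from 0.91 for Cdt1 to 1.41 for Mcm3. Other kept probe sets of Ccne1, Cdt1, Mcm2 and Mcm3 had the same order of organ means. For Rrm1, Mcm5 and E2f1 the order depended on the probe set. Another of Rrm1 reversed it (collecting duct 8.44, proximal tubule 8.27, muscle 6.46, urothelium 6.85). Another of Mcm5 had collecting duct (9.1) above muscle (9.06). Another of E2f1 had urothelium (9.14) below collecting duct (9.17) and proximal tubule (9.22). Label batch and organ largely coincide, and batch 4 is the batch that holds both. Within it, 15 of the 18 members were lower in proximal tubule than in muscle (median -0.76) and 17 of 18 were lower in collecting duct than in muscle (median -1.02), with 1 array of each.

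Of these 8 genes, Cdt1, Mcm3 and Mcm5 hold an E2F motif (TTTGGCG or TTTCGCG, either strand) in the promoter window, and Ccne1, E2f1, Mcm2, Pcna and Rrm1 do not. Mcm6 and Mcm7 hold it too, and their ureter and kidney arrays overlap. The promoters of Mcm3 and Mcm5 are shown as examples of S phase members with the motif, from RefSeq (GRCm38.p6), 250 bases before to 50 after the start, 5' to 3', with E2F and CCAAT matches in capitals. Mcm3 lies on the minus strand at chr1:20820263-20820562 and Mcm5 on the plus strand at chr8:75109259-75109558.
Mcm3: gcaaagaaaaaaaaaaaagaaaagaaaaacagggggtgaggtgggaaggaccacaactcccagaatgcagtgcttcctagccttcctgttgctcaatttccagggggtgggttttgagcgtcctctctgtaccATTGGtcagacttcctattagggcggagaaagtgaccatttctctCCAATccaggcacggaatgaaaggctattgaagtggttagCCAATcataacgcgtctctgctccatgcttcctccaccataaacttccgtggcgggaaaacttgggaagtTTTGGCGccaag
Mcm5: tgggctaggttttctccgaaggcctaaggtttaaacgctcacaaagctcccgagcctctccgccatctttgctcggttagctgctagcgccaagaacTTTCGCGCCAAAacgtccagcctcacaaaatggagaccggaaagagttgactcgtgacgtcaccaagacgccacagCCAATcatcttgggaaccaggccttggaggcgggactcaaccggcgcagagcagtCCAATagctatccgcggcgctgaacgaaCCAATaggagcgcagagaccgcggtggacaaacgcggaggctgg
In Mcm5 a TTTCGCG begins 153 bases before the start and overlaps a CGCCAAA that begins 148 bases before it. The Mcm3 match begins 38 bases after the start. Both genes separated the organs in every array with the probe sets used. Mcm3 was at 10.88 and 11.57 in collecting duct, 11.87, 11.82 and 10.70 in proximal tubule, 12.38, 12.79 and 12.81 in muscle and 12.41, 12.76 and 13.37 in urothelium. Mcm5 was at 12.22 and 12.70 in collecting duct, 12.17, 12.28 and 13.01 in proximal tubule, 14.07, 13.31 and 13.39 in muscle and 13.69, 14.01 and 13.55 in urothelium. No comparison of compartments called either gene. A promoter was found for 33 of the 40 genes. The E2F motif was present in 5 of 16 promoters of 15 S phase members (31.2%), in 1 of 14 of G2/M members (7.14%) and in 2.37% of all 32851 promoters.

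Early proximal tubule was the compartment in which S phase members were called lower. Against the mean of the other 3 compartments, 3 of 18 were lower and 0 higher, with a median of -0.61 over the list and 0.05 over all genes. Over all 39 genes, 6 were lower (15.4%, against 6.41% of all genes) and 1 was higher (2.56%, against 9.53%). In either direction 17.9% of the members and 15.9% of all genes were called, so the number of calls alone was near the background. With label batch as a block 0 of these 7 were called, and without proximal tubule replicates 2 and 3 in turn 1 and 2 were called. The low S phase level was not particular to proximal tubule. Collecting duct, with 2 arrays, had a median of -0.58 and 0 of 18 called, against 2.04% of all genes. Between these compartments the median was -0.04 and 0 of 18 were called, against 5.84% of all genes.

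Pcna, the sliding clamp of the replication fork, was at 13.35, 12.82 and 12.99 in proximal tubule replicates 1 to 3. Collecting duct gave 13.37 and 14.65, muscle 14.90, 14.95 and 14.70, and urothelium 14.85, 14.74 and 15.29. All 3 proximal tubule arrays were below the other 8, and collecting duct replicate 1 came within 0.02 of the highest of them. The difference was -1.55 ± 0.33 (SE, n = 3 against 8, limma adjusted p = 0.00649), and -1.79 with label batch as a block, where the call was lost (adjusted p = 0.143). In the pairs, Pcna was lower in proximal tubule than in muscle by -1.80 ± 0.40 and higher in urothelium than in proximal tubule by 1.91 ± 0.40. Within batch 4 the difference between proximal tubule and muscle was -1.60.

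Ccne1, the cyclin that drives entry into S phase, was at 13.17, 12.08 and 12.81 in proximal tubule and at 12.80 and 13.48 in collecting duct. Muscle arrays were at 14.10, 13.69 and 14.57, and urothelium at 14.06, 14.17 and 14.09. The urothelium arrays had an SD of 0.05. The difference of proximal tubule from the mean of the others was -1.10 ± 0.34 (adjusted p = 0.0415), and a second probe set gave -0.65. The call was made under 8 of 21 alternatives. It was lost with a pseudocount of 12, with no filter, with averaged probe sets, without x, s and a probe sets, and without each of 8 single arrays (collecting duct replicate 2, proximal tubule replicates 2 and 3, muscle replicates 1 and 3, or any urothelium array). With label batch as a block the value was -0.67 (adjusted p = 0.622).

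E2f1, a transcription factor for replication genes, was at 9.45, 8.69 and 9.38 in proximal tubule, 9.78 and 9.67 in collecting duct, 10.23, 10.73 and 10.98 in muscle and 10.20, 10.68 and 10.70 in urothelium. The proximal tubule arrays lay below all others, with a difference of -1.12 ± 0.32 (adjusted p = 0.0287). The other kept probe set of E2f1 gave -0.12, so the 2 probe sets disagree in size. The call was lost with averaged probe sets, without x, s and a probe sets, with a pseudocount of 190, without proximal tubule replicate 2 or 3 and with label batch as a block (-1.01, adjusted p = 0.36).

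Mcm2, a helicase subunit, was at 12.92, 12.52 and 12.13 in proximal tubule, 12.47 and 12.77 in collecting duct, 13.48, 13.31 and 13.70 in muscle and 13.44, 14.18 and 13.04 in urothelium. Its ureter arrays all lay above its kidney arrays, but no comparison called it (proximal tubule against muscle -0.97 ± 0.40, adjusted p = 0.105). The 6 MCM subunits did not all follow this order. Mcm7 was at 15.01 ± 0.16 (SD, n = 3) in proximal tubule and at 14.96 ± 0.27 (n = 3) in muscle, with a 95% interval of -0.77 to 0.86 for the difference. Its level in collecting duct was 14.21 ± 0.46 (n = 2), which was not called apart from proximal tubule. The probe sets of Mcm7 disagree. Proximal tubule differed from the rest by 0.17 in the one used and by -0.63, -0.08 and 0.31 in the other kept ones. The one at -0.63 had proximal tubule (10.26) and collecting duct (10.45) below muscle (11.13) and urothelium (11.06).

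Cdc6, the loader of the MCM helicase, was at 12.52, 12.26 and 11.46 in urothelium and at 10.25, 10.48 and 9.58 in proximal tubule. Muscle was at 10.46, 11.23 and 10.62, and the 2 collecting duct arrays were far apart at 9.43 and 11.53. Urothelium was higher than proximal tubule by 1.97 ± 0.53 (n = 3 against 3, adjusted p = 0.0288). Against muscle the urothelium arrays did not overlap, and the difference of 1.31 ± 0.53 was not called (adjusted p = 0.179). It was 1.24 within batch 1 and 2.06 within batch 2.

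Urothelium against proximal tubule called 4 of 18 S phase members higher, Ccne1, E2f1, Cdc6 and Pcna, and 0 lower. The E2f1 difference of 1.35 ± 0.38 (adjusted p = 0.0353) turned to -0.08 without x, s and a probe sets, and its call was made under 12 of 21 alternatives. The Ccne1 call was made under 13 of 21, that of Cdc6 under 14 of 20 and that of Pcna under 20 of 21. Over all 39 genes 6 were higher (15.4%, against 5.02% of all genes) and 0 lower (against 6.44%), and 11.5% of all genes were called in either direction. The other 2 were Ccnd1 and Ccnd2. Without single arrays of urothelium or proximal tubule this count was 2 to 3, and with label batch as a block it was 0. Ccne2, the other cyclin E, ranged widely within compartments, from 6.61 to 8.89 in proximal tubule and from 7.98 to 10.32 in muscle, and was not called. Both collecting duct arrays, proximal tubule replicates 1 and 2 and muscle replicate 2 lay below their array medians for Ccne2, close to background. Other S phase members had means closer together. Rrm2, a subunit of the enzyme that makes deoxynucleotides, had compartment means spread over 0.69 on the log2 scale. For Mybl2, an E2F target that acts in the mitotic gene programme, the spread was 0.64. Its signals (7.29 to 8.91) lay around the array medians (8.24 to 8.83), close to background. A second kept probe set of Mybl2 had means from 6.89 in collecting duct to 8.7 in muscle. Tyms, the thymidylate synthase, had its highest array in proximal tubule replicate 3 (9.86). Its lowest was 7.69, so its signals also lay around the array medians. A second kept probe set of Tyms had its highest mean in urothelium (9.31).

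**Figure D2:**
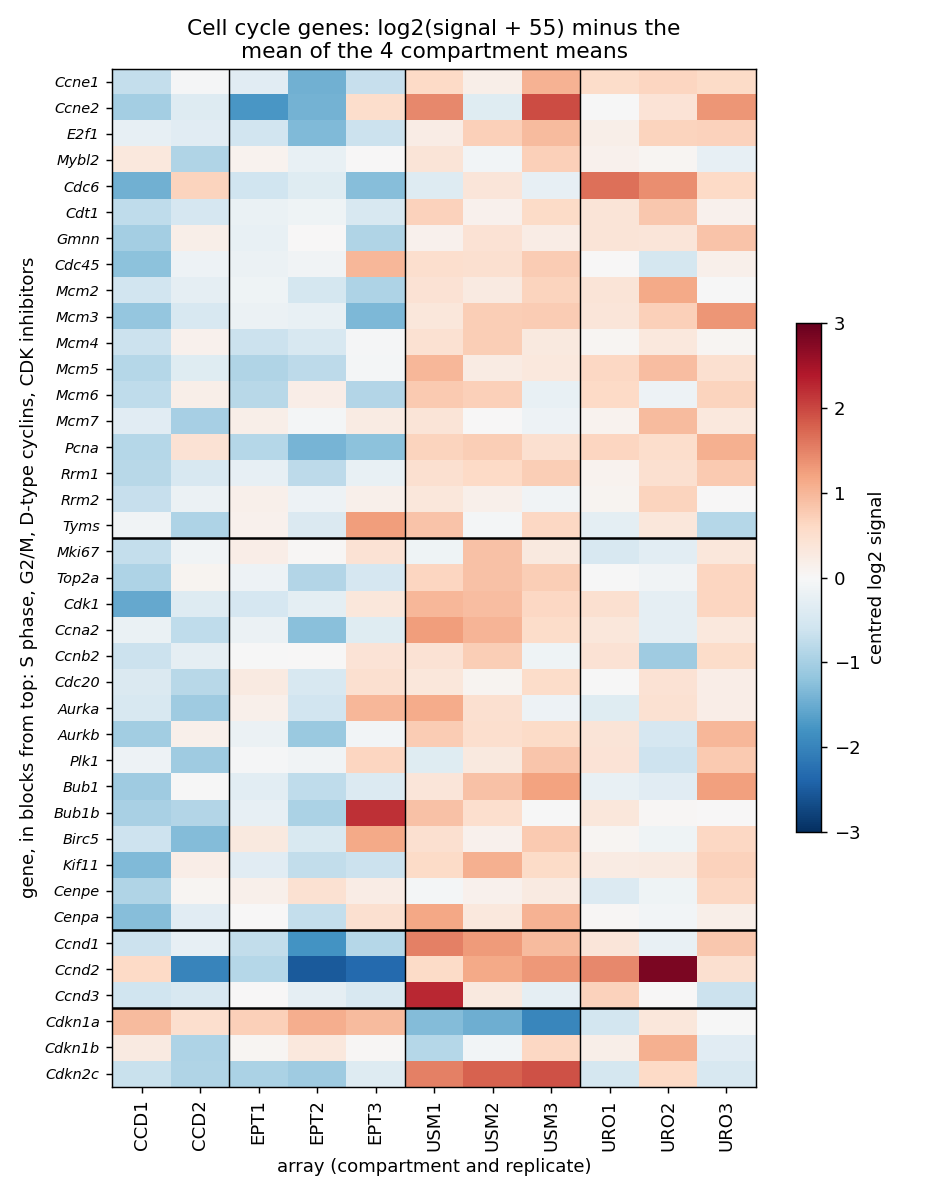
Centred log2 signal of the 39 genes (rows, in blocks of S phase, G2/M, D-type cyclins and CDK inhibitors) in the 11 arrays (columns), from blue (below the gene's mean) to red (above it). The upper block is blue in the CCD and EPT columns and red in the USM and URO columns for most genes, while the G2/M block is red in EPT3 for Bub1b, Birc5 and Aurka.

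Among mitotic genes, ureteral smooth muscle had the highest compartment mean for 14 of the 15 G2/M members, and collecting duct the lowest for 11. The centred G2/M median was 0.58, 0.51 and 0.56 in muscle, -0.91 and -0.34 in collecting duct, -0.04, -0.57 and 0.42 in proximal tubule and 0.06, -0.13 and 0.61 in urothelium. The muscle arrays lay together (SD 0.04), whereas proximal tubule (SD 0.50) and urothelium (SD 0.39) spread widely and overlapped each other. The S phase medians minus the G2/M medians averaged -0.26 in proximal tubule (SD 0.47) and 0.28 in urothelium (SD 0.41), differences within their spread. Without proximal tubule replicate 3, the median G2/M difference of proximal tubule from the rest went from 0.12 to -0.38.

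The arrays also differed in markers of other cells. Proximal tubule replicate 3, with the highest G2/M median of its compartment, had a summed nephron progenitor and renal vesicle signal of 10026, against 3280 and 5046 in replicates 1 and 2, and a summed podocyte signal of 32821, against 7897 and 9710. Replicate 2, whose G2/M median of -0.57 lay as far below the compartment mean of -0.07, had sums of 5046 and 9710. Of the 10 listed progenitor markers 9 were on the array, 7 passed the filter, and Cited1 and Fgf8 lay below the array median in every array. Urothelium replicate 3, with the highest G2/M median of its compartment, had the highest progenitor (14624) and podocyte (49882) sums of the 11 arrays and the lowest urothelial sum of its compartment. Over the groups the progenitor sum was 8542 to 12561 in collecting duct, 3280 to 10026 in proximal tubule, 1357 to 2975 in muscle and 8646 to 14624 in urothelium. The podocyte sum was 16199 to 17974, 7897 to 32821, 15412 to 39965 and 10957 to 49882 in the same order. The podocyte list includes the CDK inhibitor Cdkn1c, at 13.55 to 15.12 in muscle, so its sum does not measure podocytes alone. The part of these cells in the G2/M values was not tested.

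Against the mean of the others, muscle had 3 of 15 G2/M members higher and 0 lower, with a median of 0.65 over the list and -0.07 over all genes. Over all 39 genes 5 were higher (12.8%, against 6.05% of all genes) and 1 was lower (2.56%, against 9.12%). In either direction this was 15.4% of the members and 15.2% of all genes. With label batch as a block 2 of the 6 calls were made, and without muscle replicate 1 there were 3. Stromal marker sums, which are part of this tissue, were 429704 to 552311 in muscle, 43091 to 106151 in both kidney compartments and 76837 to 152013 in urothelium.

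Cdk1, the kinase that starts mitosis, was at 13.93, 13.86 and 13.56 in muscle, 11.39 and 12.53 in collecting duct, 12.42, 12.63 and 13.26 in proximal tubule and 13.40, 12.65 and 13.57 in urothelium. Muscle was higher than the mean of the others by 1.14 ± 0.36 (adjusted p = 0.0469), with urothelium replicate 3 just above its lowest array. This call was made under 8 of 21 alternatives. It was lost with quantile normalization, with a pseudocount of 12, with no filter, without x, s and a probe sets, without any 1 muscle array, and without collecting duct replicate 1, proximal tubule replicate 1 or 2, or urothelium replicate 1 or 2. With label batch as a block the value was 1.46 (adjusted p = 0.0799). Collecting duct was lower than muscle by -1.82 ± 0.48 (n = 2 against 3, adjusted p = 0.0311), and the arrays did not overlap. That call was lost without collecting duct replicate 1, without any 1 muscle array and with label batch as a block (-2.29, adjusted p = 0.136).

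Ccna2, the cyclin A of S phase and G2, was at 14.46, 14.22 and 13.75 in muscle and at 13.54, 12.93 and 13.51 in urothelium. Proximal tubule gave 13.04, 11.96 and 12.84, and collecting duct 13.01 and 12.45. The muscle arrays were above the other 8 (1.25 ± 0.34, adjusted p = 0.0242), and a second probe set gave 1.41. The call was lost without collecting duct replicate 2 or muscle replicate 1 or 2, and with label batch as a block (1.03, adjusted p = 0.214).

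Cenpa, the histone H3 variant of centromeres, was at 14.78, 13.94 and 14.65 in muscle, 12.33 and 13.27 in collecting duct, 13.63, 12.90 and 14.08 in proximal tubule and 13.65, 13.54 and 13.80 in urothelium. Its call in muscle was close to the threshold (1.12 ± 0.36, adjusted p = 0.0492), and its other 2 kept probe sets gave 0.02 and 0.68. The arrays overlapped with those of proximal tubule. Both Cenpa calls, in muscle against the rest and in collecting duct against muscle, were made under 7 of 21 alternatives, and muscle replicates 1 and 3 were among the single arrays without which they were lost.

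Top2a, the topoisomerase that untangles sister DNA, was at 15.30, 15.55 and 15.40 in muscle, 13.73 and 14.75 in collecting duct, 14.51, 13.78 and 14.16 in proximal tubule and 14.65, 14.55 and 15.31 in urothelium. It was lower in proximal tubule than in muscle by -1.27 ± 0.40 (adjusted p = 0.0394) with no overlap. A second kept probe set of Top2a showed muscle above the mean of the others by 0.27, against 1.01 for the first. The Top2a call was made under 11 of 21 alternatives and was lost without any 1 muscle array or without proximal tubule replicate 2 or 3.

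Mki67, which encodes the Ki-67 antigen used to count cycling cells, had overlapping arrays in most pairs of compartments. Its collecting duct arrays lay below those of proximal tubule. Its log2 signals were 14.18 and 14.79 in collecting duct, 15.09, 14.93 and 15.32 in proximal tubule, 14.77, 15.77 and 15.18 in muscle and 14.42, 14.59 and 15.23 in urothelium. No comparison called it, and the proximal tubule to muscle difference of -0.12 had a 95% interval of -0.99 to 0.74. The proximal tubule arrays thus overlapped those of muscle for Mki67 and lay below them for Pcna, and the difference between these genes was not tested.

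Other G2/M members split in proximal tubule. Of the 15, 8 had a positive difference from the rest and 7 a negative one, none of them called. At an unadjusted limma p under 0.05 there were 2, against 29.7% of all genes. Birc5 (survivin, 0.43 ± 0.38), Bub1b (a spindle checkpoint kinase, 0.45 ± 0.53), Cenpe (a kinetochore motor, 0.37 ± 0.33) and Mki67 (0.29 ± 0.33) were on the positive side. Ccna2 (-0.79), Kif11 (a spindle motor, -0.77), Top2a (-0.68) and Bub1 (a checkpoint kinase, -0.66) were on the negative side. The side depended on the probe set for some of the 15. Other kept probe sets gave the opposite sign for Bub1b (-0.14 and -0.04), Cenpe (-0.34) and Top2a (0.08). They also did so for Cdc20 (0.12 against -0.44 and -0.35), Aurkb (-0.61 against 0.16) and Cenpa (-0.11 against 0.14 and 0.06). They kept the sign for Ccna2 (-0.87), Kif11 (-0.74 and -0.01), Bub1 (-0.05) and Aurka (1.37). Bub1b was at 15.07 in proximal tubule replicate 3, against 12.63 and 11.92 in the other replicates and 11.90 to 13.75 in the rest. Proximal tubule against muscle called 3 of the 15 lower (20%, against 8.06% of all genes), Top2a, Ccna2 and Kif11, and 0 higher (against 12.3%). Kif11 was at 10.60, 10.22 and 10.31 in proximal tubule, 9.64 and 11.15 in collecting duct, 11.54, 12.01 and 11.54 in muscle and 11.19, 11.21 and 11.63 in urothelium. The Kif11 call was lost without any 1 of the proximal tubule and muscle arrays, without urothelium replicate 1 or 3, with a pseudocount of 12, with no filter and with label batch as a block (-1.93, adjusted p = 0.173). Of the 15 G2/M members, Kif11 was the 1 (6.67%) whose ureter arrays all lay above its kidney arrays, against 2.37% of all genes.

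The promoters of Cdk1, Top2a, Kif11 and Cenpa are shown because these members were called between muscle and a kidney compartment and share the CHR motif (TTTGAA or TTCGAA, either strand). Capitals mark CHR, CCAAT and, in Cdk1, E2F matches, and the sequences are from RefSeq (GRCm38.p6). Cdk1 is at chr10:69352863-69353162 on the minus strand, Top2a at chr11:99024140-99024439 on the minus strand, Kif11 at chr19:37376132-37376431 on the plus strand and Cenpa at chr5:30666636-30666935 on the plus strand.
Cdk1: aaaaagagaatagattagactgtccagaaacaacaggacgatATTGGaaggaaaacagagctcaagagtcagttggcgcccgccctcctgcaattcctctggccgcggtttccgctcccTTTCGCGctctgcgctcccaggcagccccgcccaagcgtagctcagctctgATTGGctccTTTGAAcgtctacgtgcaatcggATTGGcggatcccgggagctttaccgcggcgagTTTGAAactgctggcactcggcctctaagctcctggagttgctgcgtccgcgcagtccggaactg
Top2a: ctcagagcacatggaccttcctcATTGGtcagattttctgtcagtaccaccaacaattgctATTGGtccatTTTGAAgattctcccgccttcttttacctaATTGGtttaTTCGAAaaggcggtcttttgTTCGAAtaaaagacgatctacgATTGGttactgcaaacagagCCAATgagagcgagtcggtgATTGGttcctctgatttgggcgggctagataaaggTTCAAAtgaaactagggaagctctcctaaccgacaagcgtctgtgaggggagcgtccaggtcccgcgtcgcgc
Kif11: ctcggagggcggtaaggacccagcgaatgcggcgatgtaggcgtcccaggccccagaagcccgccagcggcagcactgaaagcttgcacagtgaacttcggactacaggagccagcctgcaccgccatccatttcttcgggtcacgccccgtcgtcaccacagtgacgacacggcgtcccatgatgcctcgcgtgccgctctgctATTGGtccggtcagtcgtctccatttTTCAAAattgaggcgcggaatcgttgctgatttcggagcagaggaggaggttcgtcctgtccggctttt
Cenpa: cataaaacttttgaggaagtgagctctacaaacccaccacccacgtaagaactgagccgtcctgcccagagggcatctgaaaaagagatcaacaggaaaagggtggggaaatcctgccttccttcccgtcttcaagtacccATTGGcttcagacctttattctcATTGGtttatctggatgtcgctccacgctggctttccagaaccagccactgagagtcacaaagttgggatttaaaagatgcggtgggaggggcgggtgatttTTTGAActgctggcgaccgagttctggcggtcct
The CHR match nearest the start begins 15 bases before it in Cdk1, 23 before it in Top2a and 19 before it in Kif11, and 16 after it in Cenpa. Top2a holds 4 CHR and 6 CCAAT matches in this window. A CHR match was present in 11 of 14 promoters of G2/M members (78.6%), in 3 of 16 of S phase members (18.8%) and in 19.2% of all 32851 promoters. The CCAAT box (CCAAT, either strand) was present in 13 of 14 (92.9%), 10 of 16 (62.5%) and 37.4%. No promoter of the 3 CDK inhibitors held a CHR match, which says only that these letters are not in their windows.

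Cortical collecting duct had the lowest values for most members, and limma called 0 of 39 genes against the mean of the others, where 2.04% of all genes were called, 1.42% higher and 0.624% lower. All 18 S phase members (median -0.58) and all 15 G2/M members (median -0.74) had negative differences, and the median over all genes was -0.03. At an unadjusted p under 0.05 there were 13 of 39 members, against 13.4% of all genes, and the count of calls was 0 under all 21 alternatives. The members with the widest differences were Birc5 (-1.29 ± 0.43, adjusted p = 0.172) and Cdk1 (-1.29 ± 0.41, adjusted p = 0.144). Collecting duct rests on 2 arrays, and replicate 1 was below replicate 2 for both list medians. Without replicate 2 the S phase median went to -0.89.

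Collecting duct against muscle called 5 of 39 genes, 4 lower (10.3%, against 3.36% of all genes) and 1 higher (2.56%, against 4.91%). In either direction 12.8% of members and 8.27% of all genes were called. The lower genes were Cdk1, Cenpa, Ccnd1 and Cdkn2c, and the higher gene was Cdkn1a. Without collecting duct replicate 1 this count was 1, without muscle replicates 1, 2 and 3 in turn it was 2, 3 and 2, and without urothelium replicate 1 it was 3. With label batch as a block it was 0. Collecting duct against proximal tubule and urothelium against collecting duct called 0 of 39, where 5.84% and 0.257% of all genes were called. At an unadjusted limma p under 0.05 there were 1 and 9 members, against 18% and 12% of all genes. Of all genes, 2.19% were higher and 3.65% lower in collecting duct than in proximal tubule, and 0.162% were higher and 0.0955% lower in urothelium than in collecting duct.

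Of the 3 D-type cyclins, 2 were called lower in proximal tubule and 1 higher in muscle, where 6.41% and 6.05% of all genes were called in those directions. Ccnd1, which links growth signals to the cycle, was at 15.31, 15.08 and 14.74 in muscle, 14.15, 13.57 and 14.61 in urothelium, 13.15 and 13.53 in collecting duct and 13.05, 11.99 and 12.94 in proximal tubule. The muscle arrays were above the other 8 (1.67 ± 0.35, adjusted p = 0.00509), and the proximal tubule arrays were below the other 8 (-1.50 ± 0.35, adjusted p = 0.0101). The other 2 probe sets of Ccnd1 gave 1.98 and 1.99 in muscle and -1.31 and -1.79 in proximal tubule. The order was muscle, urothelium, collecting duct and proximal tubule, and no neighbours in it were called apart (urothelium minus muscle -0.93, urothelium minus collecting duct 0.77, collecting duct minus proximal tubule 0.68).

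Ccnd2, a second D-type cyclin, had the largest range of the 39 genes, 5.36 on the log2 scale. It was at 14.96, 16.34 and 13.99 in urothelium, 14.08, 14.64 and 14.80 in muscle and 12.66, 10.98 and 11.17 in proximal tubule. The 2 collecting duct arrays stood at 14.10 and 11.52, so that 1 lay among the ureter arrays and 1 among the proximal tubule arrays. Urothelium was higher than proximal tubule by 3.49 ± 0.71 (11.3-fold, adjusted p = 0.00613), and proximal tubule differed from the mean of the others by -2.53 ± 0.59 (adjusted p = 0.0105). All 7 probe sets of Ccnd2 were lower in proximal tubule, by -0.92 to -3.50. With label batch as a block the proximal tubule value was -1.62 (adjusted p = 0.336).

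Ccnd3, the third D-type cyclin, was at 12.88, 10.91 and 10.35 in muscle, 11.32, 10.63 and 9.97 in urothelium, 10.65, 10.35 and 10.14 in proximal tubule and 10.04 and 10.15 in collecting duct. Muscle replicate 1 alone was above 12, the arrays of all compartments otherwise overlapped or adjoined, and no comparison called it. A second kept probe set gave -0.60 in muscle, opposite in sign to the 1.01 of the first.

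**Figure D3:**
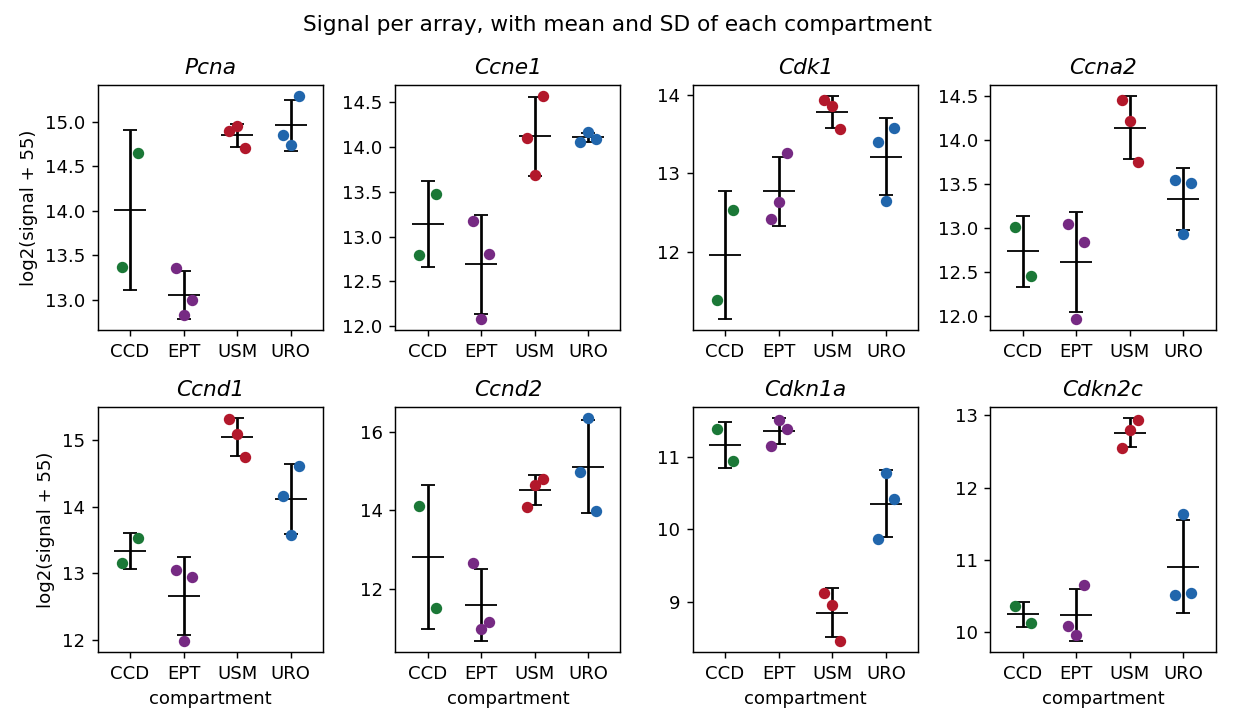
Log2(signal + 55) of 8 members in each array (points), with the mean (horizontal line) and SD (bars) of each compartment, n = 2 for CCD and 3 for the others. Pcna, Ccnd1 and Ccnd2 are lowest in EPT, Ccnd1 and Cdkn2c are highest in USM, and Cdkn1a is lowest in USM, where its 3 arrays lie between 8.46 and 9.12.

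The CDK inhibitors gave the members with the smallest adjusted p. Cdkn1a, the p21 protein that halts cells downstream of p53 and in differentiation, was at 9.12, 8.96 and 8.46 in muscle and at 9.87, 10.77 and 10.42 in urothelium. Proximal tubule was at 11.15, 11.51 and 11.38, and collecting duct at 11.38 and 10.94. All 3 muscle arrays were below the other 8, and lay near their array medians (8.29, 8.51 and 8.46), close to background. The 5 kidney arrays were above all 6 ureter arrays, as for 2.06% of all genes, in the grouping chosen after the values were seen. Muscle differed from the mean of the others by -2.11 ± 0.32 (adjusted p = 0.000504), and proximal tubule by 1.23 ± 0.32 (adjusted p = 0.0185). Collecting duct was not called apart from proximal tubule (-0.18 ± 0.42). The muscle value was -2.05 with label batch as a block (adjusted p = 0.0214), and the call was made under all 21 alternatives.

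Cdkn2c, the p18 protein of the INK4 family that blocks Cdk4 and Cdk6, went the other way. It was at 12.55, 12.80 and 12.94 in muscle, 10.52, 11.64 and 10.55 in urothelium, 10.09, 9.97 and 10.65 in proximal tubule and 10.37 and 10.13 in collecting duct. The muscle arrays were above all others, by 2.30 ± 0.34 (4.92-fold, adjusted p = 0.000416), under all 21 alternatives, and the value with label batch as a block was 2.35 (adjusted p = 0.0124). Urothelium was below muscle by -1.86 ± 0.40 (adjusted p = 0.0117), and by -1.84 and -2.03 within batches 1 and 2. Within batch 4, proximal tubule was below muscle by -2.71 and collecting duct by -2.43. Proximal tubule was also called lower than the mean of the others (-1.07 ± 0.34, adjusted p = 0.0459), a call made under 8 of 21 alternatives and lost without any 1 proximal tubule array. This low level was not particular to proximal tubule, since collecting duct minus proximal tubule was 0.02 ± 0.45.

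Cdkn1b, the p27 protein, was at 9.53 and 8.33 in collecting duct, 9.32, 9.56 and 9.28 in proximal tubule, 8.39, 9.16 and 9.88 in muscle and 9.42, 10.33 and 8.90 in urothelium. All compartments overlapped, no comparison called it, and the difference of muscle from the others had an interval of -1.04 to 0.75. Urothelium against muscle called 2 of 39 genes (5.13%, against 7.96% of all genes), Cdkn1a higher (1.50 ± 0.38, adjusted p = 0.0262) and Cdkn2c lower, where 5.03% of all genes were higher and 2.93% lower. Without muscle replicate 2 or 3 or urothelium replicate 2 or 3 this count was 1. Urothelium against the mean of the others called 0 of 39, where 2.37% of all genes were called, 1.65% higher and 0.713% lower. At an unadjusted limma p under 0.05 there were 6 members, against 16% of all genes. The highest values there were Ccnd2 at 2.12 ± 0.59 (adjusted p = 0.0839) and Cdc6 at 1.63 ± 0.44 (adjusted p = 0.0761), and with a pseudocount of 190 the count was 2. Without collecting duct replicate 1, collecting duct replicate 2 or urothelium replicate 3 it was 1.

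**Figure D4:**
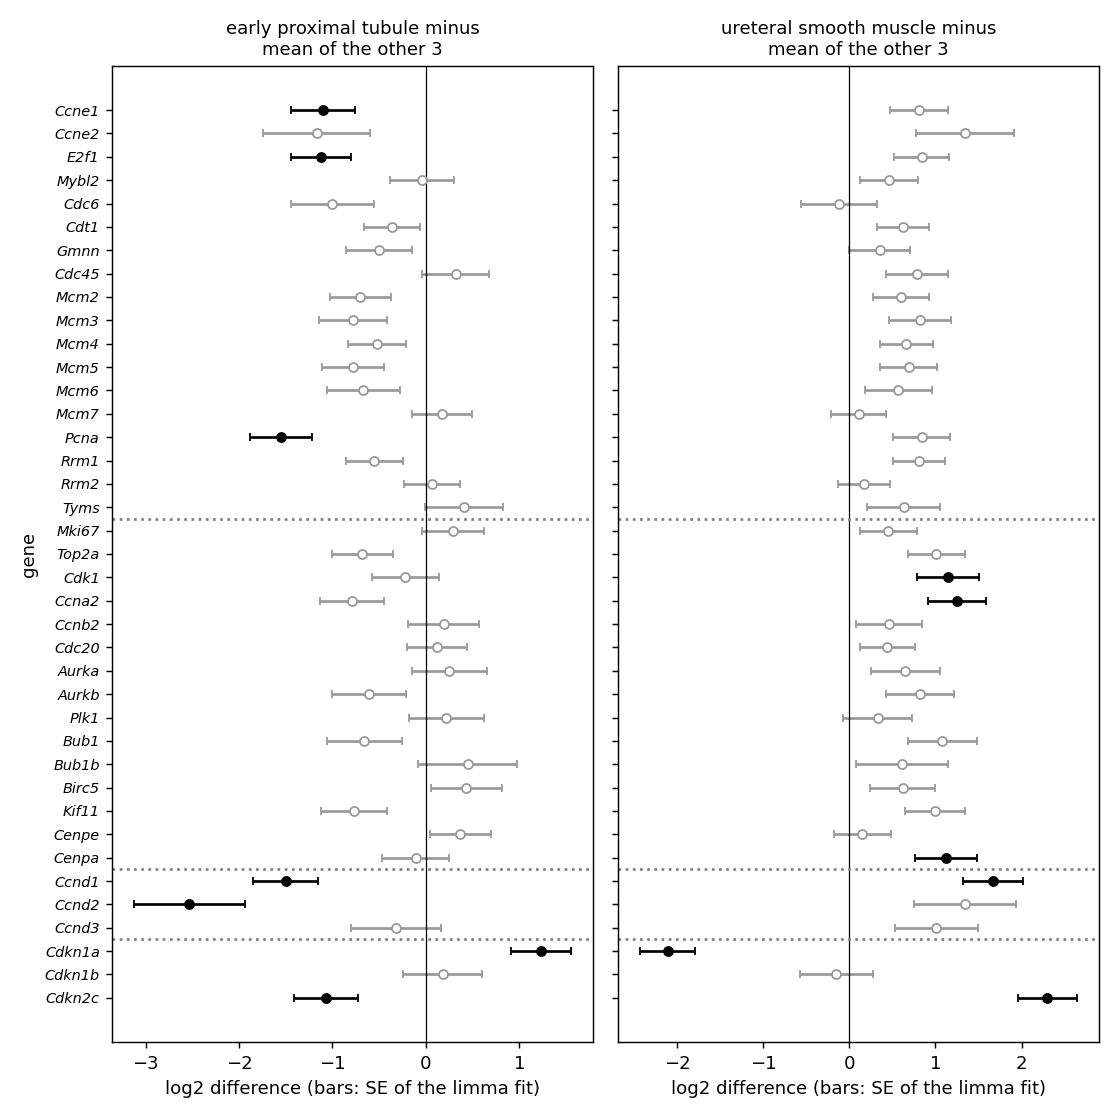
Log2 difference of each of the 39 genes in early proximal tubule (left) and ureteral smooth muscle (right) from the mean of the other 3 compartments, with the SE of the limma fit as bars. Filled points are called genes, 7 on the left and 6 on the right, and dotted lines separate S phase, G2/M, D-type cyclins and CDK inhibitors.

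The pair with the most members called was proximal tubule against muscle, with 9 lower (23.1%, against 8.06% of all genes) and 1 higher (2.56%, against 12.3%). Lower in proximal tubule were Ccnd2 (-2.91 ± 0.71), Cdkn2c (-2.53 ± 0.40), Ccnd1 (-2.38 ± 0.42), Pcna (-1.80 ± 0.40), Ccna2 (-1.53 ± 0.41), E2f1 (-1.47 ± 0.38), Ccne1 (-1.43 ± 0.41), Kif11 (-1.32 ± 0.42) and Top2a (-1.27 ± 0.40). Cdkn1a was higher (2.50 ± 0.38, adjusted p = 0.000396). All 10 had no overlap between the arrays of both compartments, which a call on these same arrays largely implies, so it adds no support. The share of all genes without overlap in this pair was not counted. In either direction 25.6% of members and 20.4% of all genes were called. Without proximal tubule replicate 2 the count was 4, without muscle replicates 1 and 3 in turn it was 6 each time, and with label batch as a block it was 0.

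Other genes of the same pathways were counted from lists that hold no member. Of 39 other tested genes of the replication fork, nucleotide supply and chromatin assembly, 3 were higher in muscle (7.69%, against 6.05% of all genes, median 0.55) and 3 lower in proximal tubule (7.69%, against 6.41%, median -0.40), both near the background. In proximal tubule 1 was higher (2.56%, against 9.53%). In collecting duct 2 were lower (5.13%, against 0.624%, median -0.68), and in urothelium 1 was higher (2.56%, against 1.65%, median 0.55). Pola1, the catalytic subunit of the priming polymerase, was at 10.22, 10.57 and 10.32 in proximal tubule and 12.69, 12.89 and 12.77 in muscle. It was called in both (-1.82 ± 0.36 and 1.39 ± 0.36). Rpa1, which coats single-stranded DNA, was called likewise (-1.42 ± 0.34 and 1.70 ± 0.34). Tk1, the thymidine kinase of S phase, was lower in both collecting duct arrays than in the other 9, which lay at 10.71 to 12.23 (-2.07 ± 0.43, adjusted p = 0.0254), and Pola2 was lower there too (-2.11 ± 0.51, adjusted p = 0.0499).

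Of 50 other tested genes of the spindle, kinetochore and cytokinesis, 8 were higher and 0 lower in muscle (16%, against 6.05% of all genes higher, median 0.69). In proximal tubule 2 were lower (4%, against 6.41%, median -0.24). In collecting duct 1 was lower (2%, against 0.624%, median -0.61), and in urothelium 1 was higher (2%, against 1.65%, median 0.19). Gtse1, a microtubule-associated protein of G2, was at 6.55 and 6.15 in collecting duct, 7.69, 6.99 and 7.13 in proximal tubule and 8.75 to 9.39 in the 6 ureter arrays. It was lower in collecting duct (-2.11 ± 0.35, adjusted p = 0.00884) and higher in muscle (1.45 ± 0.30) and urothelium (1.53 ± 0.30, adjusted p = 0.0191). All its kidney arrays lay below their array medians (8.24 to 8.83 on this scale), close to background. Gtse1 thus passed the filter only through the ureter arrays, and its calls are given as description. Anln (anillin, a cytokinesis scaffold, 1.47 ± 0.33) and Smc2 (a condensin subunit, 1.62 ± 0.41) were higher in muscle, and Pttg1 (securin) was lower in proximal tubule (-1.55 ± 0.39).

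Of 14 other origin licensing and helicase genes limma called 0 in each of the 4 comparisons with the rest. At an unadjusted limma p under 0.05 there was 1 gene for urothelium and 2 for each of the others. The share of all genes was 16% for urothelium, 13.4% for collecting duct, 29.7% for proximal tubule and 27% for muscle. Gins2, a subunit of the GINS complex, was not called in muscle (0.88 ± 0.31, adjusted p = 0.0796). Between pairs it was called lower in proximal tubule than in muscle (-1.31 ± 0.38, adjusted p = 0.0254) and higher in urothelium than in proximal tubule (1.32 ± 0.38, adjusted p = 0.0382). Of 29 other tested CDKs, Rb and E2F family genes and inhibitors, 2 were lower in proximal tubule (6.90%, against 6.41% of all genes), 1 was higher there (3.45%, against 9.53%) and 1 was higher in urothelium (3.45%, against 1.65%). Cdkn2b, the p15 inhibitor of Cdk4 and Cdk6, was at 8.75, 9.94 and 9.56 in urothelium and at 6.22 to 7.18 in the other arrays but collecting duct replicate 1 (8.91). Cdkn2b was called higher in urothelium (2.42 ± 0.46, adjusted p = 0.0149) and lower in proximal tubule (-1.62 ± 0.46). Outside urothelium and collecting duct replicate 1 its arrays lay below their array medians, close to background. Cdkn2b thus passed the filter mainly through urothelium, and its calls are given as description. Mdm2, the ubiquitin ligase of p53, was higher in proximal tubule (1.22 ± 0.37, adjusted p = 0.0417), and the antiproliferative gene Btg2 was lower there (-1.59 ± 0.44).

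The genes outside the list whose pattern over the 11 arrays was most like the mean of the G2/M members included Hmmr (r = 0.913), Tacc3 (r = 0.911), Cenpf (r = 0.906) and Prc1 (r = 0.897), all of the spindle and cytokinesis list. Ska1, a kinetochore protein, stood at r = 0.934 and Rcbtb2 at r = 0.939. The other 4 of the 10 were Inf2 (0.918), Nbn (0.901), Tcf21 (0.894) and Slc2a4 (0.894). Tcf21, a mesenchymal transcription factor, was at 13.54 to 14.54 in muscle and 9.69 to 11.77 in the kidney arrays. The arrays of 1 compartment share their cell types, so these coefficients rest on differences between compartments too, and carry no test.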

How the data were processed

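Signals of 11 arrays of microdissected tissue were used. The authors deposited 1 linear intensity per probe set (45101 in all), made by the authors with GCOS (version not given in the sources used here), per the submitters' processing notes. All arrays had a trimmed mean of 1500, so the authors' scaling was kept. Detection calls were not used here.

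Values were taken to log2(signal + 55), 55 being near the 20th percentile. A probe set was kept if above its array's median in at least 2 arrays. Of all probe sets, 34945 had 1 symbol, 932 several and 9160 none, and 64 were controls. Where several probe sets named a gene, the brightest on average stood for it, which left 13614 genes. All compartments were fitted together in limma 3.58.1 under R 4.3.3, with 7 residual and 6.38 prior degrees of freedom. Contrasts set every compartment against the average of the remaining 3, and every pair. Replicate numbers follow accession order and pair nothing. Genes with values in every array are the members called against the rest, those with the largest moderated t, and a preset few such as Mki67. Other genes named are up to 4 per list with the largest moderated t, and 10 by likeness. Members and lists were chosen with earlier results of these data known. Alternatives tried included pseudocounts of 12 and 190, quantile normalization, other filters and probe set rules, eBayes options, label batch as a block and leaving out each array. The fit was tested on simulated data. Promoters came from a RefSeq table (GRCm38.p6). Plots used Python 3.11.15, pandas 2.3.3 and matplotlib 3.10.9.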

Additional observations from a re-analysis of the deposited data

How the results depend on the processing

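No paired analysis was possible because the replicate numbers used here follow accession order, and the numbers in the sample names repeat within proximal tubule and within muscle. The date-like part that sample names share across compartments served as the label batch instead. With it as a fixed block, which leaves 4 residual degrees of freedom, the counts of members called fell to 0 in proximal tubule against the rest, 2 in muscle against the rest, 0 in proximal tubule against muscle, 0 in urothelium against proximal tubule, 0 in collecting duct against muscle and 1 in urothelium against muscle. The median G2/M difference of proximal tubule went to -0.27 with that block.

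Collecting duct against muscle called 3 members with quantile normalization, 3 with a pseudocount of 12 and 3 with no filter. Urothelium against the rest called 2 members with a pseudocount of 190, 1 when a gene's probe sets were averaged and 1 with the trend and robust options. Without x, s and a probe sets, E2f1 in urothelium against proximal tubule turned to -0.08. Of the 36 single calls, 33 were lost with the fixed block, 0 with the random block, 0 to 10 under the other settings and 5 to 18 without single arrays, the 18 being without proximal tubule replicate 2.

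Leaving out each array, where a lone collecting duct array is assumed to vary like the other groups, gave 1 to 8 members in proximal tubule against the rest, 3 to 8 in muscle and 0 to 1 in urothelium. The pairs gave 1 to 5 in collecting duct against muscle, 4 to 10 in proximal tubule against muscle, 2 to 7 in urothelium against proximal tubule and 1 to 2 in urothelium against muscle. The S phase median of collecting duct ran from -0.89 to -0.43 and the G2/M median of proximal tubule from -0.38 to 0.25. The number of arrays limits the precision, and signals near the array median are close to background.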
